A study of Homo sapiens with 6 samples.

Results

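Chromosome 5 carried 28881 of the 380031 peaks called in 4 chromatin immunoprecipitation sequencing (ChIP-seq) libraries of plasminogen activator inhibitor-1 (PAI-1). Every peak on chromosome 5 of the deposited hg19 lists was taken, and lines with the same start and end were counted once. The chromosome was chosen by its peak density in these same lists, where UM-UC-3 had its densest autosome, so its densities are given as a description without a test. The antibody was directed against endogenous PAI-1, and the chromatin came from RT112 and UM-UC-3, both long-established human lines from bladder cancer. No treatment or genetic change separated the groups: each cell line was used as it is, with 2 replicates described as biological and 1 input library without antibody. The input libraries were not analysed here, so all values below come from the 4 antibody libraries. RT112 had 6522 chromosome 5 peaks of 96423 in replicate 1 and 4066 of 60227 in replicate 2. UM-UC-3 had 8960 of 109287 in replicate 1 and 9333 of 114094 in replicate 2. The lists held no read counts, so the depth behind each list is not known from them. To allow for the different list sizes, a density was divided by the mean density over the 22 autosomes of the same library, and is called relative density below. The smallest two-sided p that an exact permutation test of 2 against 2 libraries can reach is 0.333.

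PAI-1 is a secreted serpin that inhibits the tissue and urokinase plasminogen activators, and the study examined its presence in the nucleus. A ChIP-seq peak is a stretch of genome where sequenced fragments pile up above background, and a cell with more copies of a chromosome segment yields more fragments from it. Chromosome 5 has a short arm, 5p, with long stretches of few genes, cadherin genes and several receptors for growth hormone, prolactin and related cytokines. Its long arm, 5q, holds the clustered protocadherins, a cluster of interleukin genes and many genes of growth control. Gains of 5p and losses of 5q are known in bladder cancer. DNA copy number of these cells was not measured here, and more binding and more DNA copies cannot be told apart in these lists.

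The sequences of the best-ranked peaks are shown first, because the rank of a peak is the most direct record of the antibody signal in the lists. They are taken from the 3 chromosome 5 peaks of each cell line with the best mean rank of score among those found in both replicates, followed by the peak with the best mean rank among those found in all 4 libraries. Each line gives 240 bases around the peak midpoint, or the whole peak where it was shorter, from the plus strand of the GRCh37 reference, the assembly of hg19. Capitals mark runs of at least 8 bases in which a unit of 2 different bases is repeated.

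RT112 rank 2, chr5:150487567-150487806: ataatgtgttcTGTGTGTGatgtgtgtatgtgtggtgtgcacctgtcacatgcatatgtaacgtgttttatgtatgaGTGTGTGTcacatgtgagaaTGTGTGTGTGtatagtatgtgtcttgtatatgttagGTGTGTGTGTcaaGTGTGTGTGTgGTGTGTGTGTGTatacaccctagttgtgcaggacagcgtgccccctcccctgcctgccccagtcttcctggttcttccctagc
RT112 rank 3, chr5:61629207-61629446: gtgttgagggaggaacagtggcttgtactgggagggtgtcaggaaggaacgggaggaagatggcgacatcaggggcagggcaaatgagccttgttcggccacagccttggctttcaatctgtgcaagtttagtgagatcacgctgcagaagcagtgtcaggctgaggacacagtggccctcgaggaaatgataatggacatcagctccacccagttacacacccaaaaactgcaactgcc
UM-UC-3 rank 1, chr5:156494174-156494413: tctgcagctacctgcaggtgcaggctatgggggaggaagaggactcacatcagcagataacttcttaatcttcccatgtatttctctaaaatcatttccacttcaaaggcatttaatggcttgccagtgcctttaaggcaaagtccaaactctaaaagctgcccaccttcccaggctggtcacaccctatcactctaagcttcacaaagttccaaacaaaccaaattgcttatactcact
UM-UC-3 rank 2, chr5:162672769-162673006: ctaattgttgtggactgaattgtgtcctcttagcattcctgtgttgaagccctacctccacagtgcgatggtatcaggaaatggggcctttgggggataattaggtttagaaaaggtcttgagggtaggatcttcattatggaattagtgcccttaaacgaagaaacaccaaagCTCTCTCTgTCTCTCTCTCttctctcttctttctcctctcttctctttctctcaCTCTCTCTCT
UM-UC-3 rank 3, chr5:35608985-35609224: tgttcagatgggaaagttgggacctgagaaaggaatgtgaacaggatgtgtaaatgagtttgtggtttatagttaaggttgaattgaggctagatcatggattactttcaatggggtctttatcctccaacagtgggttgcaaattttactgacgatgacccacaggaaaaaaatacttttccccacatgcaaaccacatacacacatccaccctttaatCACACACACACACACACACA
All 4 libraries rank 1, chr5:116022363-116022602: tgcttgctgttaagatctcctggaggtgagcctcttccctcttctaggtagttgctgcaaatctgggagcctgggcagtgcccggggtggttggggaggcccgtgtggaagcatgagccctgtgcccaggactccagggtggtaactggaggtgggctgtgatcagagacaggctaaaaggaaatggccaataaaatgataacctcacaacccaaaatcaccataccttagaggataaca

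The score that the peak caller gave to a peak was taken to be a −log10 probability, and whether of a p-value or a q-value is not stated. A score moves with the depth of its library, so scores of different libraries stand side by side as values, and their differences are not read as differences in binding. The RT112 peak of rank 2, chr5:150487523-150487850, lies in an intron of ANXA6, which encodes a membrane-binding annexin. Its score was 56.9 and 38.3 in RT112, against 16.0 and 14.3 in UM-UC-3, with 6 runs in its window. The RT112 peak of rank 3, chr5:61629146-61629508, lies in an intron of the kinesin gene KIF2A and scored 42.1 and 36.8 in RT112, with no peak in either UM-UC-3 library and no such run.

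In UM-UC-3 the first peak was chr5:156494071-156494516, in an intron of HAVCR1, which encodes a cell surface receptor of the TIM family. Its score was 66.3 and 68.4 in UM-UC-3 and 27.0 and 15.5 in RT112, so that all 4 libraries contained it. The second, chr5:162672769-162673006, lies in an intron of the unnamed gene ENSG00000254186 and scored 66.3 and 57.1, with no peak in RT112. The third, chr5:35608978-35609232, lies between genes at 8.71 kb from SPEF2 and scored 52.8 and 50.4, with a score of 2.97 in RT112 replicate 2 and no peak in RT112 replicate 1. Among the peaks found in all 4 libraries, the best mean rank belonged to chr5:116022341-116022624, at 111.8 kb from the semaphorin gene SEMA6A. It scored 24.4 and 29.5 in RT112, against 32.1 and 26.3 in UM-UC-3. The HAVCR1 peak followed, and then chr5:63442681-63443339, at 18.3 kb from RNF180, with scores of 19.2, 14.4, 30.1 and 28.2 in the same order of libraries.

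Repeats were then counted over the chromosome, with longer runs than those in capitals above. Windows of 240 bases around all chromosome 5 peaks were searched for 6 copies in a row of CA or TG, of CT or AG, or of TA, and for 12 A or 12 T; each pair covers both strands. The CA or TG repeat was in 1.07% and 1.06% of the RT112 peaks and in 0.993% and 0.986% in UM-UC-3, compared with 1.17% of the 740392 consecutive windows of that length on the chromosome. Among peaks with a score of at least 10, it was in 1.26% and 2.81% in RT112, which is 8 and 10 peaks, and in 1.11% and 0.787% in UM-UC-3, which is 9 and 7 peaks. The CT or AG repeat was in 0.506% and 0.516% of the RT112 peaks and 0.580% and 0.579% in UM-UC-3, compared with 0.462% of the windows. Runs of A or T were scarcer in peaks, 2.44% and 1.65% in RT112 libraries, 2.78% and 3.08% in UM-UC-3, compared with 4.77% of the windows. The TA repeat was in 0.0307% and 0.0246% of the RT112 peaks and 0.10% and 0.0857% in UM-UC-3, compared with 0.579% of the windows. Reads in repeats map less uniquely, and the part of mapping in these shares was not tested.

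Peaks were denser on chromosome 5 than on the average autosome in all 4 libraries, and more so in UM-UC-3. There were 36.7 and 22.9 peaks per Mb of known sequence in the RT112 replicates and 50.4 and 52.5 in the UM-UC-3 replicates. The autosomal means were 33.7 and 21.1 per Mb in RT112 and 38.8 and 40.4 per Mb in UM-UC-3. The relative density was thus 1.09 in both RT112 libraries and 1.30 in both UM-UC-3 libraries. The mean was 1.09 ± 0.0016 (SD, n = 2) in RT112, against 1.30 ± 0.0013 (SD, n = 2) in UM-UC-3, a difference of 0.212. Chromosome 5 ranked 4 and 5 of the 22 autosomes in RT112, between chromosomes 16 and 15 in replicate 1 and chromosomes 15 and 10 in replicate 2. It ranked 1 in both UM-UC-3 libraries, ahead of chromosome 12 at 1.19 and 1.20 and chromosome 1 at 1.19 and 1.20.

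The short arm carried most of this excess. On 5p, which holds 46.3 Mb of known sequence before position 46.4 Mb, there were 2196 and 1472 peaks in RT112, against 3490 and 3637 in UM-UC-3. On 5q, which holds 131 Mb after position 49.4 Mb, there were 4325 and 2594 peaks in RT112, against 5469 and 5695 in UM-UC-3. The relative density of 5p was 1.41 and 1.51 in RT112, against 1.94 in both UM-UC-3 libraries. That of 5q was 0.977 and 0.938 in RT112, against 1.07 in both UM-UC-3 libraries, close to the autosomal mean in each. The UM-UC-3 libraries were above both RT112 libraries on either arm. The mean for 5p was 1.46 ± 0.0725 in RT112, against 1.94 ± 0.0013 in UM-UC-3 (SD, n = 2 each), a 1.33-fold difference, and for 5q it was 0.957 ± 0.0276 and 1.07 ± 0.0013, a 1.12-fold difference. The ratio of 5p over 5q was 1.44 and 1.61 in RT112, against 1.81 in both UM-UC-3 libraries. The short arm has fewer genes than the long arm, with 3.32 against 5.56 protein-coding genes per Mb, and nearly the same GC content, 39.2% against 39.6%.

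**Figure D1:**
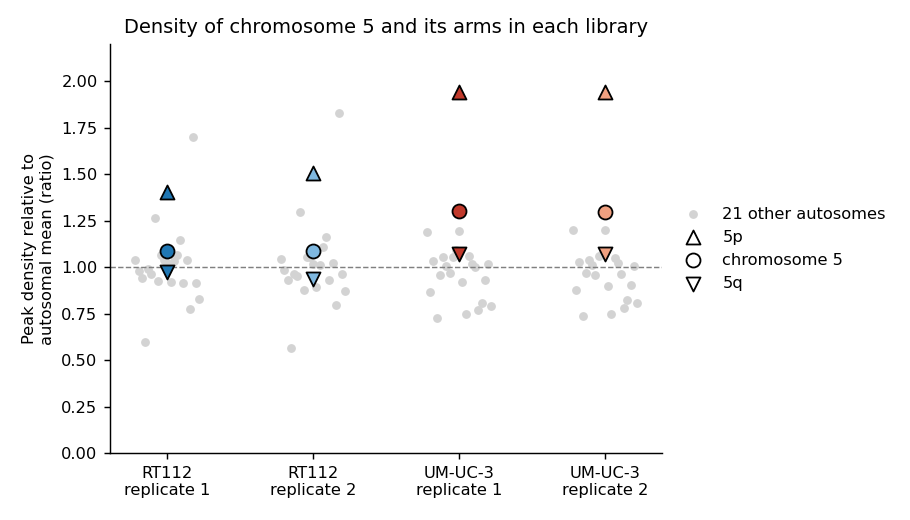
Peak density relative to the autosomal mean of the library (vertical axis, a ratio, 1 at the dashed line) for each of the 4 libraries (horizontal axis). Triangles pointing up are 5p, circles chromosome 5, triangles pointing down 5q, and grey points the 21 other autosomes. The 5p values of 1.94 in UM-UC-3 lie above all grey points of their libraries, while in RT112 chromosome 20, at 1.70 and 1.83, lies above 5p. The grey points are whole chromosomes, so 5p is not compared with other arms.

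Subsets of the same lists are no independent evidence for the excess on 5p, and they are given as a description. The excess was present in the strong peaks, those with a score of at least 10. Their relative density on 5p was 1.62 and 1.76 in RT112, against 2.14 and 2.24 in UM-UC-3. On 5q it was 0.856 and 0.851 in RT112, against 0.984 and 1.03 in UM-UC-3. In peaks found in both replicates of a cell line, the 5p over 5q ratio was 1.69 in both RT112 libraries and 1.80 in both UM-UC-3 libraries. The cell lines were then 0.110 apart, against 0.286 over all peaks.

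In bins of 1 Mb the 2 replicates of a cell line followed the same course. Over the 178 bins of the chromosome, the relative densities of the replicates correlated with Pearson r = 0.888 and Spearman rho = 0.831 in RT112 and with 0.960 and 0.901 in UM-UC-3. Between libraries of different cell lines Pearson r was 0.648 to 0.673. These are descriptions over bins, which are neighbours on a chromosome and share base composition and mappability. On 5p the lowest, median and highest bins of RT112 stood at 0.0890, 1.37 and 2.37 in replicate 1 and at 0.142, 1.54 and 2.56 in replicate 2. For UM-UC-3 replicate 1 these bins stood at 0.335, 1.96 and 2.63, and for replicate 2 at 0.272, 2.04 and 2.60. On 5q the medians were 0.989 and 0.950 in RT112, against 1.08 and 1.09 in UM-UC-3. A relative density of at least 1.5 was reached by 17 and 24 of the 46 bins of 5p in RT112 and by 41 in each UM-UC-3 library, against 6, 4, 2 and 4 of the 132 bins of 5q. The coefficient of variation over the bins of 5p was 33.7% and 37.4% in RT112, against 23.1% and 23.3% in UM-UC-3, so the short arm was more uneven in RT112, whose bins also held fewer peaks.

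**Figure D2:**
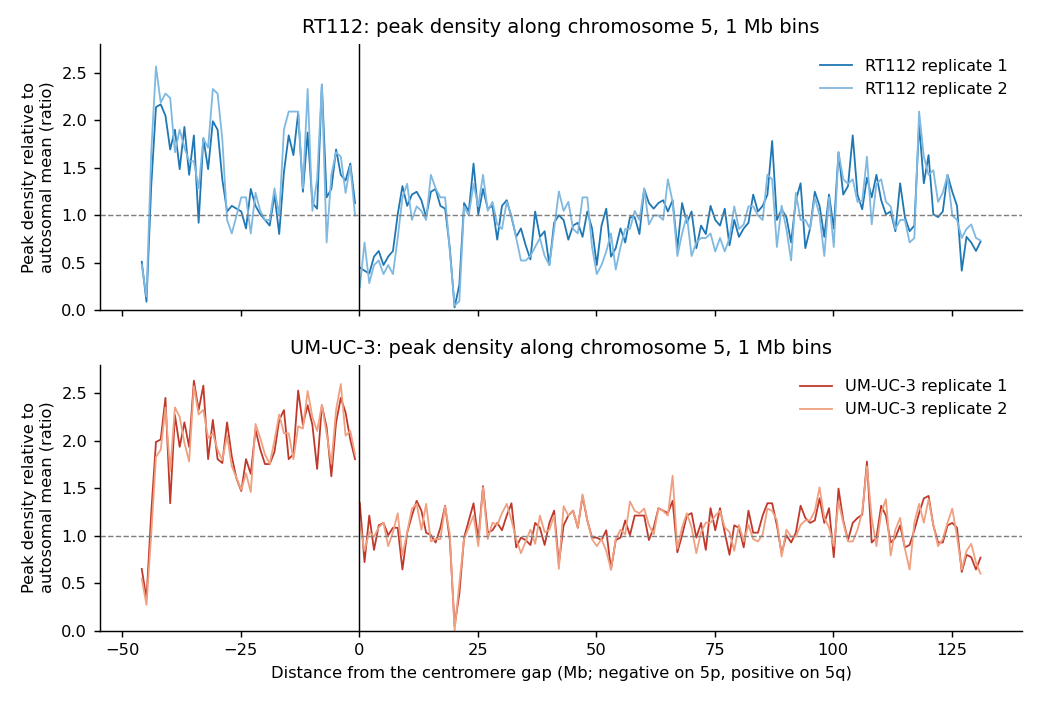
Relative peak density in 1 Mb bins (vertical axis, a ratio, 1 at the dashed line) against the distance of the bin from the centromere gap in Mb (horizontal axis, 5p to the left), with RT112 above and UM-UC-3 below and 1 line per replicate. In UM-UC-3 most of 5p was left as a single stretch with a level of 2.03, which drops to 1.07 across the gap. Its bins vary, and from 18 to 30 Mb its level was lower, at 1.85 and 1.84. In RT112 5p falls into a high, a low and a high stretch.

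Both UM-UC-3 libraries were above both RT112 libraries in 103 of the 178 bins, 57.9%, and below both in 29 bins, 16.3%. Over all 2694 autosomal bins these shares were 39.0% and 33.0%. Since this contrast is part of what chose the chromosome, the counts are given beside those of the autosomes and nothing is read from them. On 5p UM-UC-3 was higher in 36 of 46 bins and RT112 in 4, and on 5q in 67 and 25 of 132 bins. The median log2 ratio of UM-UC-3 over RT112 was 0.41 on 5p, 0.19 on 5q and 0.02 on the other autosomes.

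To locate where the cell lines part, the log2 ratio of the bins was divided into stretches of equal mean. The division gave 3 breakpoints, at 18, 57 and 148 Mb, with steps of 0.49, -0.47 and -0.30 in the log2 ratio. The first and second recurred within 1 Mb in 8 of 8 other settings. The third recurred within 1 Mb in 3 of 8. With bins of 0.5 Mb and without RT112 replicate 1, a breakpoint lay at 150 Mb instead. With a penalty of 6, and without RT112 replicate 2 or UM-UC-3 replicate 1, there was none near it. From the p-arm end to 18 Mb the relative density was 1.56 and 1.73 in RT112, against 1.86 and 1.83 in UM-UC-3, a 1.12-fold difference. From 18 to 57 Mb, across the centromere, it was 1.14 and 1.17 in RT112, against 1.80 in both UM-UC-3 libraries, a 1.56-fold difference, and UM-UC-3 was higher in 33 of its 36 bins. From 57 to 148 Mb it was 0.958 and 0.902 in RT112, against 1.08 in both UM-UC-3 libraries, 1.16-fold. From 148 Mb to the q-arm end it was 1.13 and 1.15 in RT112, against 1.07 and 1.05 in UM-UC-3, 0.929-fold. The same division gave 0 to 7 breakpoints on each of the 21 other autosomes, with a median of 1, and per 100 bins chromosome 5 had 1.69 against 1.51.

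**Figure D3:**
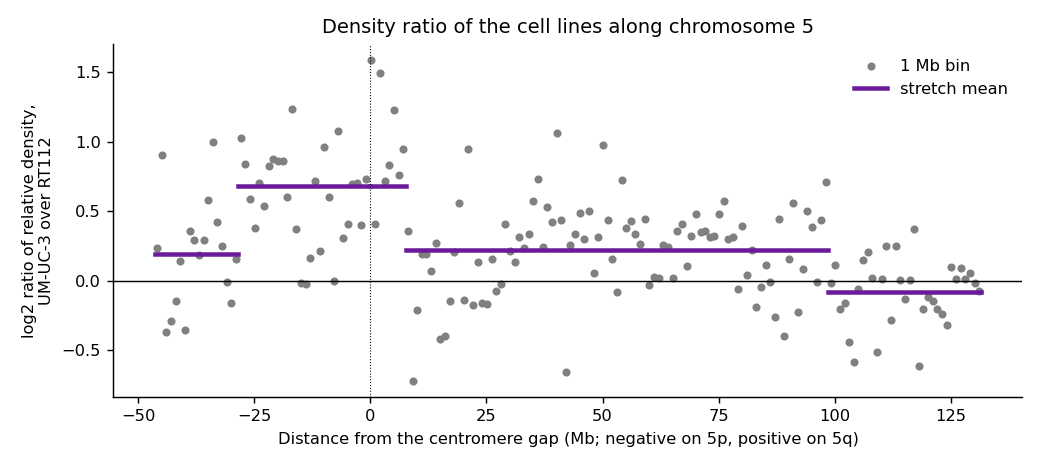
The log2 ratio of relative density, mean of UM-UC-3 over mean of RT112 (vertical axis), in 1 Mb bins (grey points) against the distance from the centromere gap in Mb (horizontal axis, 5p to the left). Purple lines are the means of the 4 stretches, 0.19, 0.68, 0.22 and -0.08 from left to right, and the highest spans the gap.

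Each cell line was also divided on its own, which gave 12 stretches in RT112 and 6 in UM-UC-3. UM-UC-3 had a single undivided stretch over most of 5p, with a level of 2.03 in each replicate between 3 and 46 Mb. From 49 to 69 Mb it was at 1.06 and 1.07, so its step lay at the centromere. RT112 changed at 3, 18, 30, 46 to 49, 57, 68 and 71 Mb, and each RT112 library divided alone had steps at these same positions. Beyond 71 Mb the RT112 libraries differed, with steps at 132 and 176 Mb in replicate 1 and at 82 and 128 Mb in replicate 2. No library divided alone had a step near the third breakpoint at 148 Mb, and the mean of the RT112 libraries had one at 150 Mb. Between 3 and 18 Mb RT112 was at 1.74 and 1.92, against 2.08 and 2.07 in UM-UC-3. Between 18 and 30 Mb, a stretch with only 5 protein-coding genes, RT112 was at 1.03 in both libraries. UM-UC-3 was there at 1.85 and 1.84, below its level on either side, a 1.79-fold difference. The GC content of this stretch was 35.1%, against 40.8% from 3 to 18 Mb and 38.9% from 30 to 46 Mb. The part of base composition in these levels was not tested. Between 30 and 46 Mb RT112 rose to 1.52 and 1.61, against 2.11 and 2.14 in UM-UC-3. On the 5q side of the centromere, from 49 to 57 Mb, RT112 fell to 0.516 and 0.444, the lowest of its stretches apart from 68 to 71 Mb. UM-UC-3 fell across the centromere too, to 1.04 and 1.01, and was 2.14-fold above RT112 there. From 57 to 68 Mb the cell lines were again alike in level, with 1.15 and 1.13 in RT112, against 1.09 and 1.11 in UM-UC-3.

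The step at 57 Mb can be followed in single bins. From 56 to 57 Mb there were 21 and 8 peaks in RT112, against 42 in each UM-UC-3 library, with relative densities of 0.623, 0.380, 1.08 and 1.04. From 57 to 58 Mb there were 34 and 16 peaks in RT112, against 42 and 50 in UM-UC-3, with relative densities of 1.01, 0.760, 1.08 and 1.24. From 58 to 59 Mb there were 44 and 25 peaks in RT112, against 25 and 32 in UM-UC-3, with relative densities of 1.31, 1.19, 0.645 and 0.791. The log2 ratio of these 3 bins was 0.95, 0.36 and -0.72. It was -0.21 and 0.19 in the following bins, so the order of the cell lines varied from bin to bin past the step. At 18 Mb the bin before the step held 44 and 36 peaks in RT112 and the bin after it 35 and 20, against 65 and 69, then 85 and 83, in UM-UC-3.

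Some stretches were low in all 4 libraries. The first 2 Mb of 5p, with a GC content of 52.7% and 27 protein-coding genes, were at 0.298 and 0.310 in RT112, against 0.492 and 0.410 in UM-UC-3. The last 5 bins of 5q, with a GC content of 48.0%, were at 0.647 and 0.803 in RT112, against 0.720 and 0.746 in UM-UC-3. Between 69 and 71 Mb, which holds the near-identical copies SMN1 and SMN2 and the neighbouring genes NAIP, GTF2H2, SERF1A and SERF1B, there were 10 and 3 peaks in RT112, against 17 and 20 in UM-UC-3, with relative densities between 0.0712 and 0.247. Its GC content was 38.5%. Reads from such copies cannot be placed uniquely, and the part of mapping was not tested. The highest bin by the mean of the libraries was 38 to 39 Mb, which holds EGFLAM, LIFR, OSMR and RICTOR, at 2.37 in each of the 4 libraries, from 80 and 50 peaks in RT112, against 92 and 96 in UM-UC-3.

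Of the 883 protein-coding genes of chromosome 5, 433 (49.0%) had a peak inside it or up to 3 kb away in both RT112 libraries, and 571 (64.7%) in both UM-UC-3 libraries. Over all autosomes these shares were 40.4% and 54.2%. No peak was listed in any library for 148 genes, 16.8%. The genes with most peaks were long. By their count relative to the library mean the first 8 were CTNND2, TENM2, CDH18, PDE4D, CDH12, SGCD, SPOCK1 and PDZD2, which together held 5.13 to 5.76% of the chromosome's peaks. Such a rank favours length, since these genes span 472 to 1553 kb, so density is given beside it. Density was counted per 100 kb of the gene and its 3 kb flanks, and its ratio to the density of the arm in the same library removes the list size and the arm.

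CTNND2, which encodes the neural adherens junction protein delta-catenin, spans chr5:10971948-11904558 on 5p and had 62 and 33 peaks in RT112, against 92 and 93 in UM-UC-3. Its density over that of 5p was 1.39, 1.11, 1.30 and 1.26 in RT112 replicates 1 and 2 and UM-UC-3 replicates 1 and 2, above the arm in every library. The cadherin genes CDH18, at chr5:19471405-20575982, and CDH12, at chr5:21750782-22853453, lie in the stretch where RT112 was low. CDH18 had 45 and 26 peaks in RT112, against 73 and 74 in UM-UC-3, and CDH12 had 30 and 25 against 77 in each UM-UC-3 library. Both were below the density of 5p in every library, CDH12 with 0.571 and 0.710 in RT112, against 0.922 and 0.885 in UM-UC-3. PDZD2, a gene of a protein with many PDZ domains at chr5:31639238-32111038, had 35 and 25 peaks in RT112, against 28 and 38 in UM-UC-3. Its density was 1.55 and 1.65 times that of 5p in RT112 and 0.778 and 1.01 times in UM-UC-3.

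On 5q TENM2, a teneurin adhesion gene at chr5:166406034-167691162, had 69 and 39 peaks in RT112, against 63 and 67 in UM-UC-3. Its density over that of 5q was 1.62 and 1.53 in RT112, against 1.17 and 1.20 in UM-UC-3. PDE4D, a phosphodiesterase gene that lies at chr5:58264865-59817947, just past the second breakpoint, had 57 and 37 peaks in RT112, against 46 and 52 in UM-UC-3. It was above the density of 5q in RT112, 1.11 and 1.20, and below it in UM-UC-3, 0.709 and 0.769. SGCD, which encodes delta-sarcoglycan and lies at chr5:155297354-156194799, had 36, 27, 47 and 50 peaks in the order of libraries above. SPOCK1, a proteoglycan gene at chr5:136310987-136934068, had 41 and 22 peaks in RT112, against 34 in each UM-UC-3 library, 1.98, 1.77, 1.30 and 1.25 times the density of 5q.

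**Figure D4:**
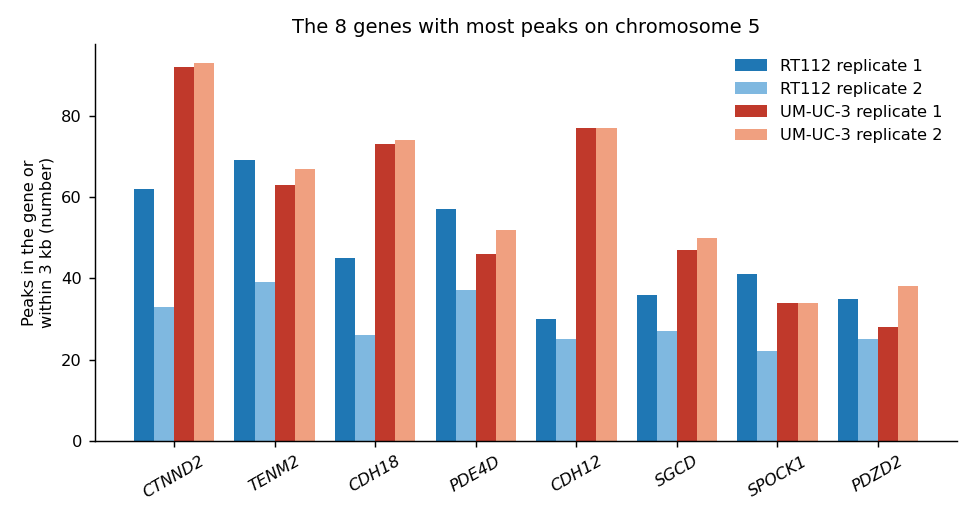
Number of peaks in the gene or within 3 kb (vertical axis) in each of the 4 libraries (bars) for the 8 genes with the highest mean count relative to the library (horizontal axis, in order of that mean). CTNND2, CDH18, CDH12 and SGCD had more peaks in both UM-UC-3 libraries than in either RT112 library, while TENM2, PDE4D and SPOCK1 had most in RT112 replicate 1 and PDZD2 in UM-UC-3 replicate 2.

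Among the 245 genes of at least 100 kb, the median density was 2.63 peaks per 100 kb in RT112, against 4.27 in UM-UC-3. The densest in RT112 all lay on 5p. They were the prolactin receptor gene PRLR with 8.52 and 6.92 peaks per 100 kb in the RT112 replicates, the endoplasmic reticulum autophagy receptor gene RETREG1 with 8.0 and 7.33, the natriuretic peptide receptor gene NPR3 with 8.28 and 6.44, and the ubiquitin ligase gene MARCHF11 with 8.36 and 5.85. MARCHF11 had fewer peaks in UM-UC-3, 6 in each library against 10 and 7, and was at 0.666 and 0.639 of the density of 5p there. The densest in UM-UC-3 were C1QTNF3-AMACR, a read-through of neighbouring genes that share its peaks, with 11.9 and 13.3 per 100 kb, the leukaemia inhibitory factor receptor gene LIFR with 12.2 and 12.9, the axonemal dynein gene DNAH5 with 12.2 and 11.6, and the meiotic kinetochore gene MEIKIN on 5q with 12.4 and 11.1. MEIKIN had 6 and 4 peaks in RT112, against 18 and 16 in UM-UC-3, which was 1.26, 1.40, 2.99 and 2.55 times the density of 5q. C1QTNF3-AMACR had 6 and 3 peaks against 17 and 19. Genes picked for their density in a single cell line tend to be lower in the other by that choice, so these contrasts are descriptions.

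Lists of chromosome 5 genes were then described by their counts, beside the shares of 49.0% in RT112, against 64.7% in UM-UC-3 over the genes of the chromosome. Counts of peaks in these lists are not divided by the list size. The mean number of peaks in UM-UC-3 was 1.73 times that in RT112 over the chromosome, 1.94 times on 5p and 1.61 times on 5q. All 5 cadherin genes of 5p had a peak in both libraries of each cell line, with 88 and 61 peaks in RT112, against 180 and 185 in UM-UC-3. They are longer than most genes, with a median of 241 kb against 43.8 kb over the chromosome, and a longer gene has more room for a peak. Of 14 genes of the extracellular matrix and adhesion, 12 had a peak in both RT112 libraries and 13 in both UM-UC-3 libraries, at a median length of 141 kb. ADAMTS12, a metalloproteinase gene, had 31 and 17 peaks in RT112, against 41 and 32 in UM-UC-3. Its density over that of 5p was 1.75 and 1.43 in RT112, against 1.45 and 1.09 in UM-UC-3. FBN2, which encodes fibrillin-2, had 8 and 2 peaks against 16 and 21. Its density over that of 5q was 0.597 and 0.249 in RT112, against 0.944 and 1.19 in UM-UC-3. HAPLN1, a hyaluronan link protein gene, had 1 and 0 against 6 and 7, and no peak was listed for the lysyl oxidase gene LOX. Not every member had more peaks in UM-UC-3: SPARC had 2 and 4 against 2 in each UM-UC-3 library, and TGFBI had 3 and 1 against 1 and 2. Together the 14 genes held 92 and 56 peaks in RT112, against 130 and 123 in UM-UC-3. Beside the 1.73-fold count of the whole chromosome, this is not read as a trait of these genes.

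Of 15 genes of growth and cancer on 5p, 12 had a peak in both RT112 libraries and 14 in both UM-UC-3 libraries, with 157 and 96 peaks in RT112, against 244 and 245 in UM-UC-3. Their median length was 132 kb, against 49.6 kb over the 154 protein-coding genes of 5p. Of those 154 genes, 56.5% had a peak in both RT112 libraries and 64.9% in both UM-UC-3 libraries. The receptor genes PRLR, IL7R, LIFR, OSMR and GHR together held 47 and 38 peaks in RT112, against 84 and 83 in UM-UC-3. Over all peaks of 5p the mean count in UM-UC-3 was 1.94 times that in RT112, so these sums are not read as a trait of the receptors. GHR, the growth hormone receptor gene, had 13 and 11 against 34 and 31, and OSMR, the oncostatin M receptor gene, had 10 and 7 against 12 and 11. LIFR was at 1.06 and 1.35 times the density of 5p in RT112 and at 1.62 and 1.64 times in UM-UC-3, while OSMR was at 2.00 and 2.08 times in RT112 and 1.51 and 1.33 times in UM-UC-3. These neighbours within the highest bin thus stood in opposite order between the cell lines.

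Of 17 genes of growth and cancer on 5q, 9 had a peak in both RT112 libraries and 12 in both UM-UC-3 libraries, with 127 and 74 peaks against 125 and 137, at a median length of 80.6 kb. Of the 729 protein-coding genes of 5q, with a median of 43.0 kb, 47.5% and 64.6% had such peaks. MAP3K1, a kinase gene of the stress response at chr5:56111376-56191979, had no peak in either RT112 library and 6 and 5 in UM-UC-3. It lies in the low RT112 stretch from 49 to 57 Mb. That stretch held 132 and 71 RT112 peaks in 8 bins, so few were to be found in a gene of 80.6 kb. MCC, a gene linked to colorectal cancer, had 20 and 12 against 22 and 26 peaks, and was at 1.28, 1.29, 1.12 and 1.27 times the density of 5q. Of the 8 genes in and near the interleukin cluster, whose median length was 6.77 kb, 2 had a peak in both RT112 libraries and 4 in both UM-UC-3 libraries, and none of them had more than 4 peaks in a library. RAD50, a DNA repair gene of the cluster, had 1 and 2 peaks in RT112, against 4 in each UM-UC-3 library, while IRF1 had 1 in each RT112 library and 0 in UM-UC-3. Of 53 clustered protocadherin genes, 23 had a peak in both RT112 libraries and 38 in both UM-UC-3 libraries. The alpha genes of the cluster share their 3′ exons, as do the gamma genes, so 1 peak can count for several of them, while the beta genes lie apart from each other. The cluster itself, chr5:140165721-140892544, held 18 and 7 peaks in RT112, against 24 and 27 in UM-UC-3, a relative density of 0.735, 0.457, 0.852 and 0.918.

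Of the 3 genes of chromosome 5 that the study examined by ChIP-PCR, 1 had a peak in both RT112 libraries, 2 had one in both UM-UC-3 libraries and 1 had none. DOCK2, a guanine nucleotide exchange factor gene of blood cells, had 18 and 13 peaks in RT112, against 31 in each UM-UC-3 library, at 1.21, 1.46, 1.65 and 1.58 times the density of 5q. No peak was listed for the kinase gene PLK2, which spans 6.16 kb. The study chose gene lists with these samples, so counts of peaks in them are not independent evidence. It took genes adjacent to PAI-1 binding and overlapped them with its RNA-seq lists, while only peaks in the gene or within 3 kb are counted here. Of its 438 genes for UM-UC-3, 18 lie on chromosome 5. Of these, 8 (44.4%) had a peak in both RT112 libraries and 13 (72.2%) in both UM-UC-3 libraries. Over the genes of the chromosome these shares were 49.0% and 64.7%. For 4 of the 18 no peak was listed in any library. Its list for RT112 was read here with 475 genes, which may be fewer than in the full list, and 27 of them lie on chromosome 5, with 14 and 20. The 3 genes on both lists were LRRC70, TSLP and ACSL6, and 1 had a peak in both RT112 libraries and 3 in both UM-UC-3 libraries. ACSL6, an acyl-CoA synthetase gene, had 3, 1, 2 and 1 peaks, TSLP, a cytokine gene, had 2, 0, 1 and 2, and LRRC70 had 0, 0, 1 and 1.

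The median score was 3.80 and 4.09 in RT112, against 3.88 and 3.85 in UM-UC-3, equal to the median over the other autosomes in each library. The highest score was 58.6 and 39.0 in RT112, against 66.3 and 68.4 in UM-UC-3. On the other autosomes the highest score was above this in every library, with 127 and 115 in RT112, against 91.3 and 83.6 in UM-UC-3. Peaks with a score of at least 10 made up 9.74% and 8.76% in RT112, against 9.06% and 9.54% in UM-UC-3. Against the other autosomes of the library this was -0.341 and 0.00744 percentage points in RT112, against -0.123 and 0.365 in UM-UC-3, and the means of the cell lines differed by 0.288 points (exact permutation test, two-sided p = 0.667). Within the chromosome, 5p had higher scores than 5q in all 4 libraries. Its median was 4.93 and 4.73 in RT112, against 4.51 and 4.44 in UM-UC-3. On 5q it was 3.80, 4.09, 3.88 and 3.85 in the same order. Strong peaks were 11.6% and 10.2% of the 5p peaks in RT112, against 10.1% and 10.6% in UM-UC-3. On 5q they were 8.81%, 7.94%, 8.41% and 8.83%.

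Recovery of a peak in the other replicate was higher in both UM-UC-3 libraries than in either RT112 library. It was 37.7% and 60.6% in RT112, against 74.5% and 71.5% in UM-UC-3. The means were 49.2 ± 16.2% and 73.0 ± 2.15% (SD, n = 2 each), 23.8 points apart (exact permutation test, two-sided p = 0.333, the lowest possible). The RT112 lists were unequal, with 6522 and 4066 peaks, of which 2460 and 2465 met a peak of the other list. In UM-UC-3 they were nearly equal, with 8960 and 9333. A shorter list limits the share that the longer one can reach, so the gap is not read as a difference in reproducibility. Chromosome 5 ranked 14 to 16 of the 22 autosomes by this share in each library. The share rose with the score. On 5p it went from 19.3% of the peaks with a score below 3 to 85.0% of those with at least 10 in RT112 replicate 1, and from 56.7% to 94.9% in UM-UC-3 replicate 1. The replicated loci numbered 2460 in RT112, against 6675 in UM-UC-3.

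Few peaks were found in the other cell line, on chromosome 5 as on the other autosomes. The share with a peak in either library of the other cell line was 8.85% and 9.79% in RT112, against 6.24% and 6.04% in UM-UC-3. Over the other autosomes it was 6.96% and 7.65% in RT112, against 5.94% and 5.88% in UM-UC-3. By this share chromosome 5 ranked 2 of 22 autosomes in both RT112 libraries, and 9 and 11 in UM-UC-3. The mean was 9.32 ± 0.666% in RT112, against 6.14 ± 0.138% in UM-UC-3 (SD, n = 2 each), a difference of -3.18 points (exact permutation test, two-sided p = 0.333). It was -6.24 points without RT112 replicate 1, -1.66 without UM-UC-3 replicate 1 and -1.23 without UM-UC-3 replicate 2. UM-UC-3 has the longer lists, which gives a peak of RT112 more to meet. The share was higher on 5p, with 14.0% and 14.1% in RT112, against 8.40% and 8.03% in UM-UC-3, than on 5q, with 6.24%, 7.36%, 4.86% and 4.78%. The bases covered by peaks moved the same way: peaks of either UM-UC-3 library covered 3.21% of 5p and 1.67% of 5q, and those of either RT112 library 1.98% and 1.29%. When all peaks of the chromosome were merged into 19048 loci, 187 (0.982%) were found in all 4 libraries, 2163 in both RT112 libraries alone, 6220 in both UM-UC-3 libraries alone and 9977 (52.4%) in 1 library. Of the 187, 103 lay on 5p and 84 on 5q, which is 1.49% and 0.692% of the loci of the arms. Counted by peak, the share found in all 4 libraries was 2.78% and 4.48% in RT112, against 2.04% and 1.94% in UM-UC-3. Over the other autosomes it was 2.14% and 3.32% in RT112, against 1.84% and 1.77% in UM-UC-3.

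**Figure D5:**
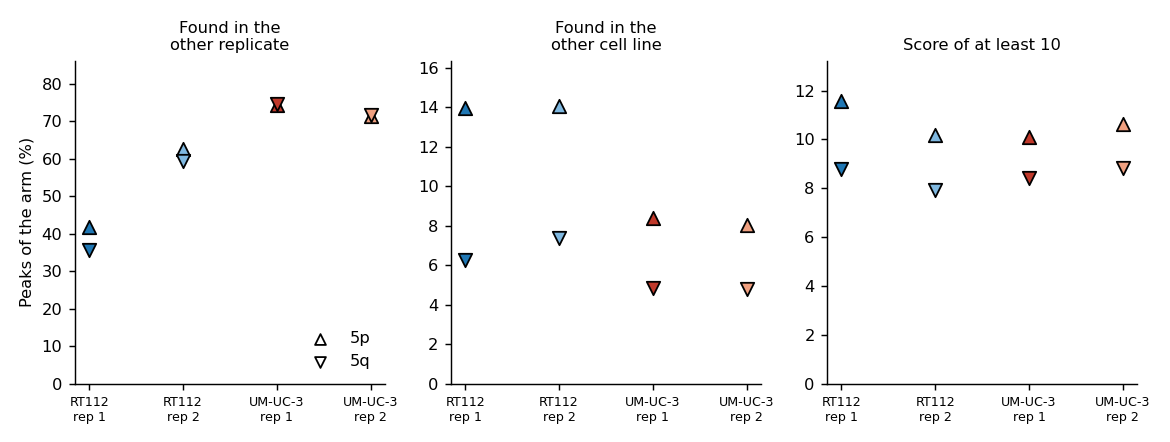
Share of peaks in percent (vertical axes) that were found in the other replicate (left), in the other cell line (middle) or had a score of at least 10 (right) in each of the 4 libraries (horizontal axes), for 5p (triangles pointing up) and 5q (triangles pointing down). In the middle and right panels 5p lies above 5q in every library, while in the left panel the arms of UM-UC-3 coincide.

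Chromosome 5 peaks were poorer in GC than those of the other autosomes. Their median GC content was 40.8% and 41.3% in RT112 and 38.8% in both UM-UC-3 libraries, rank 20 of 22 in each library. Over the other autosomes the median was 42.3% and 42.7% in RT112, against 40.3% in both UM-UC-3 libraries, so RT112 peaks were richer in GC there too. The chromosome 5 median lay 1.48 and 1.39 points below that of the other autosomes in RT112 and 1.46 and 1.45 points below it in UM-UC-3. The cell lines differed in this by -0.0149 points (exact permutation test, two-sided p = 1). Peaks more than 3 kb from any annotated gene, called distal here, made up 36.5% and 36.8% in RT112, against 38.9% and 38.1% in UM-UC-3. The means were 36.7 ± 0.163% and 38.5 ± 0.530% (SD, n = 2 each), 1.84 points apart (exact permutation test, two-sided p = 0.333). The arms differed more than the cell lines. On 5p 44.0% of the peaks were distal in both RT112 libraries and 44.4% and 44.1% in UM-UC-3, beside 42.3% of its bases, and on 5q 32.7% in both RT112 libraries and 35.4% and 34.3% in UM-UC-3, beside 33.3% of its bases.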

How the data were processed

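PAI-1 ChIP-seq peak lists of RT112 and UM-UC-3 were used, with 2 libraries each, grouped and numbered by the sample labels. The submitters' processing notes name FastQC, Trimmomatic, Bowtie 1.1.1, Picard, MACS2 2.1.0.20140616 and the build hg19. The authors deposited 1 list per library, and its score was taken to be on a −log10 scale of a p-value or q-value. Whether replicates were pooled or the input served as control in calling is not given in the sources used here. The study's methods state an average number of reads per sample, but the depth of each library is unknown, so no counting interval was computed. The lists give peaks above a limit, so a gene without a peak is only not listed.

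Lines with identical intervals were counted once, which removed 535 autosomal lines. Densities used bases other than N, in bins of 1 Mb with at least 50% of such bases. Breakpoints came from least-squares segmentation of the log2 ratio with a pseudocount of 0.1, a penalty of 3 times the variance times the natural log of the number of bins, and stretches of at least 3 bins. It was tested on simulated data. Overlap meant at least 1 bp. Genes came from GENCODE 44 mapped to GRCh37, with Python 3.11.15, numpy 2.4.6, pandas 2.3.3, scipy 1.17.1 and matplotlib 3.10.9. Differences of means were tested by exact permutation over the 4 libraries, two-sided.

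Named genes were the 8 with the highest mean count relative to the library, the 4 densest of each cell line among genes of at least 100 kb, and members of the lists. Named peaks were the 3 best by mean rank in each cell line and in all 4 libraries, of which 1 is not reported here. Some genes of these lists are not reported by name. The chromosome, lists, rules and tests were chosen with earlier results of these data known. Alternatives are given at the end. Replicate numbers were not shown to pair libraries: deviations of the bins from the cell line means correlated with r = 0.118 for the same number. With 2 replicates the deviations within a cell line are exact opposites, so both pairs give this 1 value.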

Additional observations from a re-analysis of the deposited data

Results flagged for a closer look

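Some measures moved in opposite directions in the cell lines, and these differences were not tested. The highest score on 5p minus that on 5q was 1.75 and 0.684 in the RT112 replicates and -13.6 and -17.9 in the UM-UC-3 replicates. The share of peaks found in the other replicate was higher on 5p than on 5q by 6.29 and 3.15 percentage points in RT112, while the difference was -0.182 and -0.304 points in UM-UC-3. Between 57 and 148 Mb the relative density was below the autosomal mean in RT112, at 0.958 and 0.902, and above it in UM-UC-3, at 1.078 and 1.084.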

How the results depend on the processing

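Over 7 differences between the cell lines, 45 of 48 alternatives kept the direction, 2 turned it and 1, GC content in a fixed window around the midpoint, gave 0. The 45 include the alternatives with a replicate block, whose direction was fixed in advance. They also include those of the relative density and of the 5p over 5q ratio, which measure again the density that chose the chromosome. The count is therefore no measure of robustness. The number of breakpoints was 2 to 4, against 3. The difference in relative density of chromosome 5, 0.212, became 0.224 over the whole length, 0.244 for scores of at least 10, 0.218 for replicated peaks and 0.233 against an autosomal mean without chromosome 5. The difference in the 5p over 5q ratio, 0.286, became 0.110 for replicated peaks, and was 0.370 without RT112 replicate 2. The difference in the share of strong peaks, 0.288 points, turned to -0.0129 at a score of at least 20, and without 1 library it was 0.0442 to 0.532. The difference in GC content, -0.0149 points, was -0.0610 to 0.0312 without 1 library, with the turned sign without RT112 replicate 2. The cause was not tested. The share found in the other cell line differed by -6.24 to -1.23 points without 1 library. A library left out also shortens the list that is compared with. A replicate block cannot change a difference of means here, since each cell line has 1 library of each number, so its unchanged directions show nothing. With the block, the share found in the other replicate, 23.8 points apart, had an exact permutation p of 0.5, the smallest that 2 pairs allow. A permutation p cannot pass 0.05 here, and without read counts a gene with no peak cannot be told from one below the limit of the list.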
